A study of Gallus gallus with 40 samples.

Results

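The genes described here are those that the deposited annotation (GRCg6a) places on chromosome W, the chromosome that only female birds carry. All 124 of them were found by gene identifier in the expression matrix, out of 26152 genes in all. They comprise 103 protein-coding genes, 13 miRNA genes, 5 snoRNA genes, 2 snRNA genes and 1 pseudogene. Of the protein-coding genes 35 have several exons and 68 have 1 exon. Only 13 of the 124 carry a symbol, among them HINTW, HNRNPKL, SPIN1W, UBAP2 and SMAD7B, and the others are known here by their Ensembl identifiers.

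Birds have a ZW sex chromosome system, in which females carry a Z and a W and males carry a pair of Z chromosomes. The W has lost most of the genes it once shared with the Z, and the genes it retains are largely broadly expressed regulators that still have a partner on the Z. Birds have no chromosome-wide silencing of a Z in males, so many Z genes are transcribed more in males than in females.

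RNA was sequenced from the chorioallantoic membrane, the vascular membrane under the eggshell that serves gas exchange and calcium uptake, of Ross 308 broiler embryos, a meat chicken. Each of 40 libraries came from a different embryo, with 10 females and 10 males at day 11 of incubation and 10 of each sex at day 15. Sex was determined by a molecular test on neck tissue, and no group was treated. Levels are FPKM, reads normalised to gene length and to the depth of the library, and the depth implied by the values was 28.27 to 49.24 M reads per library with a median of 35.39 M.

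Markers of the labelled tissue were present in every library, with EPCAM of epithelium at 305 to 921 FPKM and COL1A1 of stroma at 1357 to 2990 FPKM. The germ cell genes DAZL and DDX4 stayed at or below 0.23 FPKM in all 40 libraries. Cell type markers moved with day: female means of the epithelial gene CA2 were 115 FPKM at day 11 and 709 at day 15, and those of the macrophage gene CSF1R were 17.5 and 6.40. In whole tissue, fewer cells of a type and less RNA per cell cannot be told apart, and the part of these shifts in the day changes below was not tested.

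In females the W genes ranged from silent to among the abundant transcripts of the membrane. The mean over 20 female libraries reached at least 0.5 FPKM in 49 of the 124 genes and at least 10 FPKM in 15, and the median of all 124 was 0.224 FPKM. Level differed with gene structure: 29 of the 36 genes with several exons reached 0.5 FPKM, against 12 of the 68 protein-coding genes with 1 exon and 8 of the 20 other genes with 1 exon. The median female level was 6.74 FPKM in genes with several exons and 0.0916 FPKM in protein-coding genes with 1 exon. No read was found in any of the 40 libraries for 11 genes.

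HINTW (ENSGALG00000035998, chromosome W, 1840623 to 1896773), the W-linked and amplified member of the histidine triad nucleotide-binding family, had the highest level of all W genes. Its level in day 11 females ran from 969 to 1392 FPKM with a median of 1190, and in day 15 females from 521 to 876 FPKM with a median of 746. No day 15 female reached the lowest day 11 female. HINTW alone took 43.1 ± 3.47% of the reads on W genes at day 11 and 33.6 ± 3.68% at day 15 (mean ± SD, n = 10 each). HINTW is present in several near-identical copies on the W, so reads that map to more than 1 copy may have been lost or shared in the counting.

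A pair of other transcribed genes lie at the same locus. ENSGALG00000048286 (1871809 to 1874957) is a 5-exon gene inside HINTW on the opposite strand, and its female mean was 149 FPKM. ENSGALG00000041221 (1839719 to 1840514), a single exon just before the start of HINTW on the opposite strand, had a female mean of 56.2 FPKM. No exon of ENSGALG00000048286 overlaps an exon of HINTW. The strand setting of the counting is not given in the sources used here. Reads from the HINTW strand within the exons of ENSGALG00000048286 therefore cannot be set apart.

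The other abundant W genes include copies of housekeeping genes. ENSGALG00000043758 (1391452 to 1417746), whose run of exon lengths matches ATP5A1Z, the gene of the mitochondrial ATP synthase alpha subunit, stood at 122 to 161 FPKM in day 11 females and 116 to 163 FPKM in day 15 females. ENSGALG00000040263 (2397236 to 2407132), matched to the ribosomal protein gene RPL17, had a female mean of 92.2 FPKM. HNRNPKL (4704235 to 4724025), related to the RNA-binding protein hnRNP K, had a mean of 59.3 FPKM. ENSGALG00000033705, matched to VCP, the ATPase that extracts ubiquitinated proteins, had a mean of 38.8 FPKM. ENSGALG00000048307, a 3-exon gene, had a mean of 17.8 FPKM. It has 1 internal exon, too few for the exon rule by which partners were sought.

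The named regulators were lower than these. SPIN1W (5944392 to 6052596), a spindlin that reads histone methylation, had a female mean of 14.4 FPKM. UBAP2 (787 to 48077), a ubiquitin-associated protein gene, had a mean of 13.2 FPKM. SMAD7B (2602132 to 2628699), named for the inhibitory SMAD family, had a mean of 7.42 FPKM. Of the small RNA genes with a symbol, 2 of the 4 SNORD58 copies had female means of 1.92 and 2.98 FPKM and the other two had no read in females. These genes are very short, so a few reads decide such a value.

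**Figure D1:**
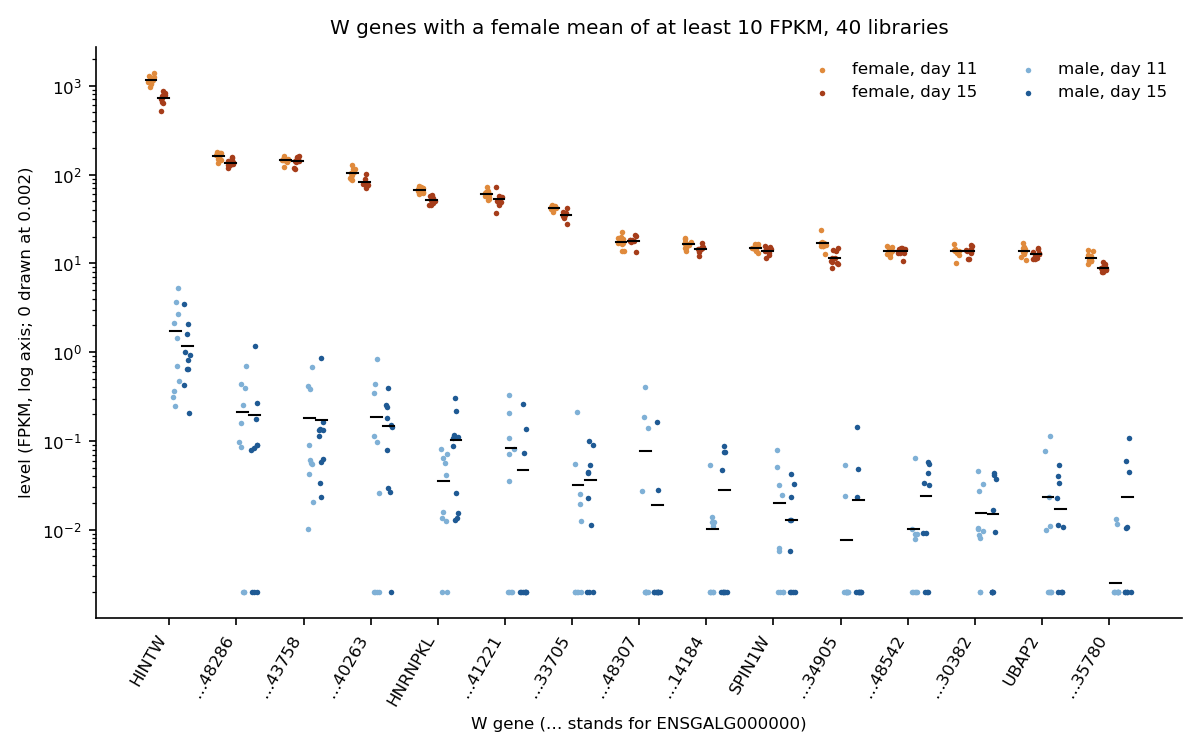
Level of the 15 W genes with a female mean of at least 10 FPKM (log axis) in each of 40 libraries, with the arithmetic mean of each group as a line and values of 0 drawn at 0.002. The female libraries sit far above the male libraries for every gene drawn, and HINTW stands above the rest in both sexes.

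Males carry no W, so reads on W genes in male libraries give the background of these measurements. Across all W genes, female libraries held 2519 ± 90.8 reads per M gene reads at day 11 and 1998 ± 123 at day 15, and male libraries held 20.5 ± 4.56 and 16.9 ± 3.70 (mean ± SD, n = 10 each). Most of the male reads, 8951 over the 20 libraries, fell on ENSGALG00000047434, whereas HINTW had 900. Without that gene and ENSGALG00000041500 (123 reads), the only genes with a male mean above 10% of the female mean among the 49 of at least 0.5 FPKM in females, the male libraries held 59 to 419 W reads each, or 1.55 to 13.97 reads per M gene reads. The lowest female library, at 1735 reads per M, was 124 times the highest male library.

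For the 15 W genes of at least 10 FPKM the male mean was 0.0888 to 0.267% of the female mean, with a median of 0.124%. HINTW in males had 6 to 148 reads per library and a mean of 1.45 FPKM, or 0.153% of the female mean. Of the 49 genes of at least 0.5 FPKM in females, 42 had a male mean under 1% of the female mean, 5 were at 1 to 10% and 2 were above. In 43 of the 49 every female library was above every male library. By limma 48 of the 49 were called lower in males at day 11 and 47 at day 15. Of all tested genes 0.932% and 0.894% were called lower in males. The 49 were chosen by their female level, and males carry no W. The separation of the sexes and these calls largely follow from that and are not a test of the genes.

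ENSGALG00000047434 (3570685 to 3580610, minus strand, 3 exons, protein coding) went the other way. In females it ran from 1.59 to 2.88 FPKM at day 11 and from 1.01 to 2.23 FPKM at day 15. In males it ran from 2.81 to 4.44 FPKM at day 11 and from 1.31 to 3.67 FPKM at day 15, on 209 to 652 reads per library. The sexes overlapped at both days, and the means lay higher in males. The male to female ratio was 1.67 at day 11 (log2 0.74 ± 0.12 SE, limma adjusted p = 2.93e-05) and 1.49 at day 15 (log2 0.58 ± 0.12, adjusted p = 0.0015). Every male library held reads for a gene that the annotation places on a chromosome males lack.

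ENSGALG00000041500 (2356561 to 2358300, 4 exons) had a male mean of 0.363 FPKM against 3.10 FPKM in females, or 11.7%. Its male signal rested on 1 to 10 reads per library. A pair of its consecutive internal exons have the same lengths as exons of RPL17, which stood at 974 to 1509 FPKM in males, but a run of that size was also found in SDK1, off the sex chromosomes. Whether reads of another gene make up the male signal was not tested.

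The genes at 1 to 10% were mostly of 1 exon. ENSGALG00000053933, a single exon inside SPIN1W on the opposite strand, had a male mean of 5.11% of the female mean on 400 male reads in all. ENSGALG00000051123 stood at 3.08%, ENSGALG00000049219 at 1.69% and the 7-exon gene ENSGALG00000047904 at 1.41%. The miRNA gene ENSGALG00000050349 stood at 3.14% on 2 male reads. Among the 75 W genes under 0.5 FPKM in females, 5 had a higher mean in males than in females, and the highest of these male means, of ENSGALG00000045335, was 0.150 FPKM.

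**Figure D2:**
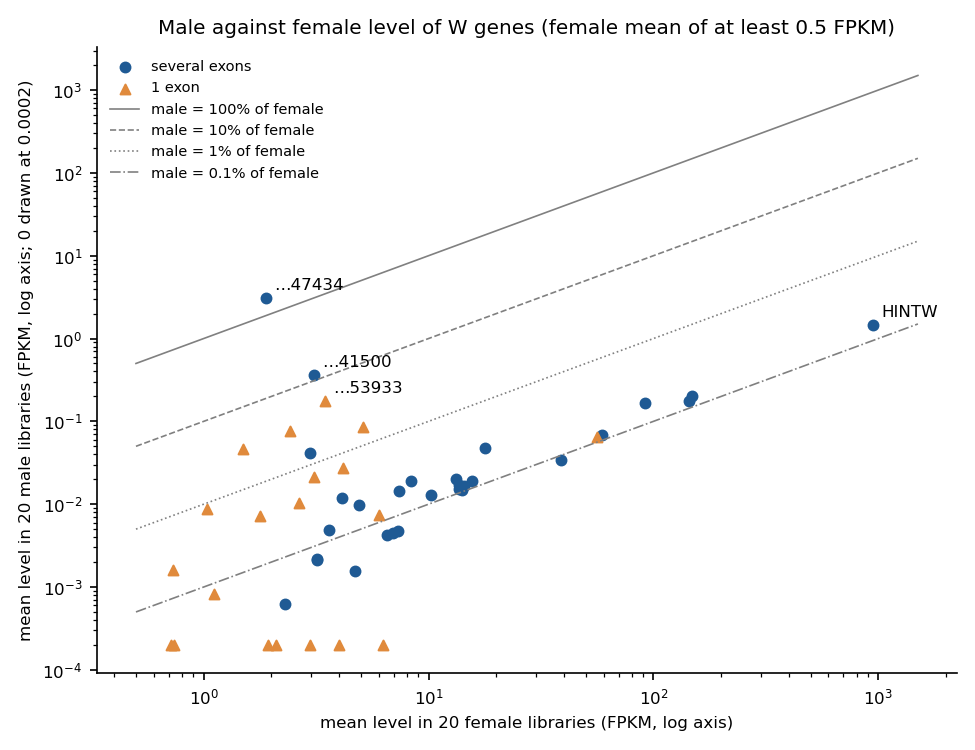
Mean level in 20 male libraries against the mean in 20 female libraries (FPKM, both axes log) for the 49 W genes of at least 0.5 FPKM in females, with circles for genes of several exons and triangles for genes of 1 exon. Most genes lie between the lines of 0.1% and 1%, and ENSGALG00000047434 lies above the line of equal levels.

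Whether W genes change as the membrane matures was examined in females alone, since males give no W level. Of the 49 W genes tested, 5 were higher and 10 lower at day 15 than at day 11 at an adjusted p below 0.05 (limma on log2(scaled FPKM + 0.1), Benjamini-Hochberg over 14979 genes), and 34 were not called. That is 30.6% of the W genes, against 44.2% of all tested genes called, 22.3% of them higher and 21.9% lower. The median log2 difference was -0.05 for W genes and 0.01 for all tested genes. Of the 15 called W genes 2 changed by at least 2-fold, beside 1052 of the 6623 called among all tested genes.

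HINTW fell from 1174 ± 125 to 728 ± 103 FPKM (mean ± SD, n = 10 each), a fold of 1.58 (log2 -0.66 ± 0.09 SE, adjusted p = 5.52e-06). It and HNRNPKL were the 2 called W genes whose day groups did not overlap, which 9.47% of all tested genes did. HNRNPKL ran from 61.0 to 75.2 FPKM with a median of 66.9 at day 11 and from 44.9 to 58.2 FPKM with a median of 50.4 at day 15. Its log2 difference was -0.35 ± 0.06 (adjusted p = 5.22e-05). Without HINTW the reads on W genes went from 1431 ± 67.8 to 1324 ± 82.1 reads per M gene reads.

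The other falls were in copies of broadly expressed genes and in a few genes for which no partner was matched. ENSGALG00000034905, matched to the transcriptional coactivator gene SUB1, fell from 16.8 ± 2.86 to 11.5 ± 2.01 FPKM (log2 -0.52 ± 0.10). ENSGALG00000047682, a single exon inside ENSGALG00000030707 on the opposite strand, fell by 0.50 on the log2 scale. ENSGALG00000035780 fell by 0.33, ENSGALG00000040263 (matched to RPL17) by 0.30, ENSGALG00000031327 (matched to the chromatin remodeller gene CHD1Z) by 0.27, ENSGALG00000033705 (matched to VCP) by 0.24, ENSGALG00000043838 by 0.34 and ENSGALG00000048286 by 0.22 (all on the log2 scale). Adjusted p in these 8 genes was 0.0003 to 0.0189.

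Both large changes were rises in single-exon genes. ENSGALG00000051123 (460076 to 464362), which lies inside ENSGALG00000027170 on the opposite strand, ran from 0.478 to 1.26 FPKM with a median of 0.706 at day 11 and from 1.04 to 4.15 FPKM with a median of 2.13 at day 15. The groups overlapped slightly, and the log2 difference was 1.46 ± 0.22 (adjusted p = 1.57e-05). ENSGALG00000046789 (5861676 to 5863262), which lies in no other gene, ran from 1.48 to 6.24 FPKM at day 11 and from 5.03 to 15.7 FPKM at day 15 (log2 1.25 ± 0.24, adjusted p = 0.000241). ENSGALG00000027170 itself stood at 3.32 ± 0.61 and 3.03 ± 0.33 FPKM and was not called (log2 -0.09 ± 0.09).

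The remaining rises were smaller. ENSGALG00000046681 rose by 0.52 ± 0.12 on the log2 scale, ENSGALG00000049219 by 0.45 ± 0.11, and ENSGALG00000031355, matched to the ubiquitin ligase gene NEDD4L, by 0.34 ± 0.09. Of the 5 W genes that rose 4 have 1 exon, and of the 10 that fell 9 have several exons. The W genes tested comprised 29 with several exons, 12 protein-coding genes with 1 exon and 8 other genes with 1 exon. Of these 8, 0 were called. Called or not, the log2 difference was positive in 12 and negative in 17 of the genes with several exons. The signs were 6 and 6 in protein-coding genes with 1 exon, and 4 and 4 in the others. Whether direction differs with exon number was not tested. SPIN1W (log2 -0.08 ± 0.07), UBAP2 (-0.07 ± 0.06), SMAD7B (0.13 ± 0.08) and ENSGALG00000043758 (0.01 ± 0.06) did not pass the test.

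When all 40 libraries were fitted together, 6 of the 10 falls lost their call, including HINTW (adjusted p = 0.157) and HNRNPKL (adjusted p = 0.0789), with the same log2 differences and larger errors. That fit also called 3 genes that the female fit did not: ENSGALG00000051029, ENSGALG00000051913 and SNORD58 (ENSGALG00000035145). In the 6 lost genes the SD on the log2 scale was 0.12 to 0.24 in females and 0.35 to 1.25 in males, where the level is near 0. Fits on only part of the day 11 embryos, by the numbers their labels give, changed other calls. The lower range, 2 to 20, holds 4 of the 10 day 11 females, and the higher range, 22 to 48, holds the rest. With only the lower range, ENSGALG00000031327 (log2 -0.17 ± 0.10, adjusted p = 0.181) and ENSGALG00000043838 (-0.22 ± 0.16, 0.266) lost their call. With only the higher range, ENSGALG00000040263 (-0.13 ± 0.07, 0.162) and ENSGALG00000048286 (-0.12 ± 0.08, 0.23) lost theirs. The lower range also gained calls for ENSGALG00000039023, ENSGALG00000051913 and SPIN1W. The SPIN1W log2 difference was -0.22 (adjusted p = 0.0462) with the lower range and 0.01 (adjusted p = 0.945) with the higher one.

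**Figure D3:**
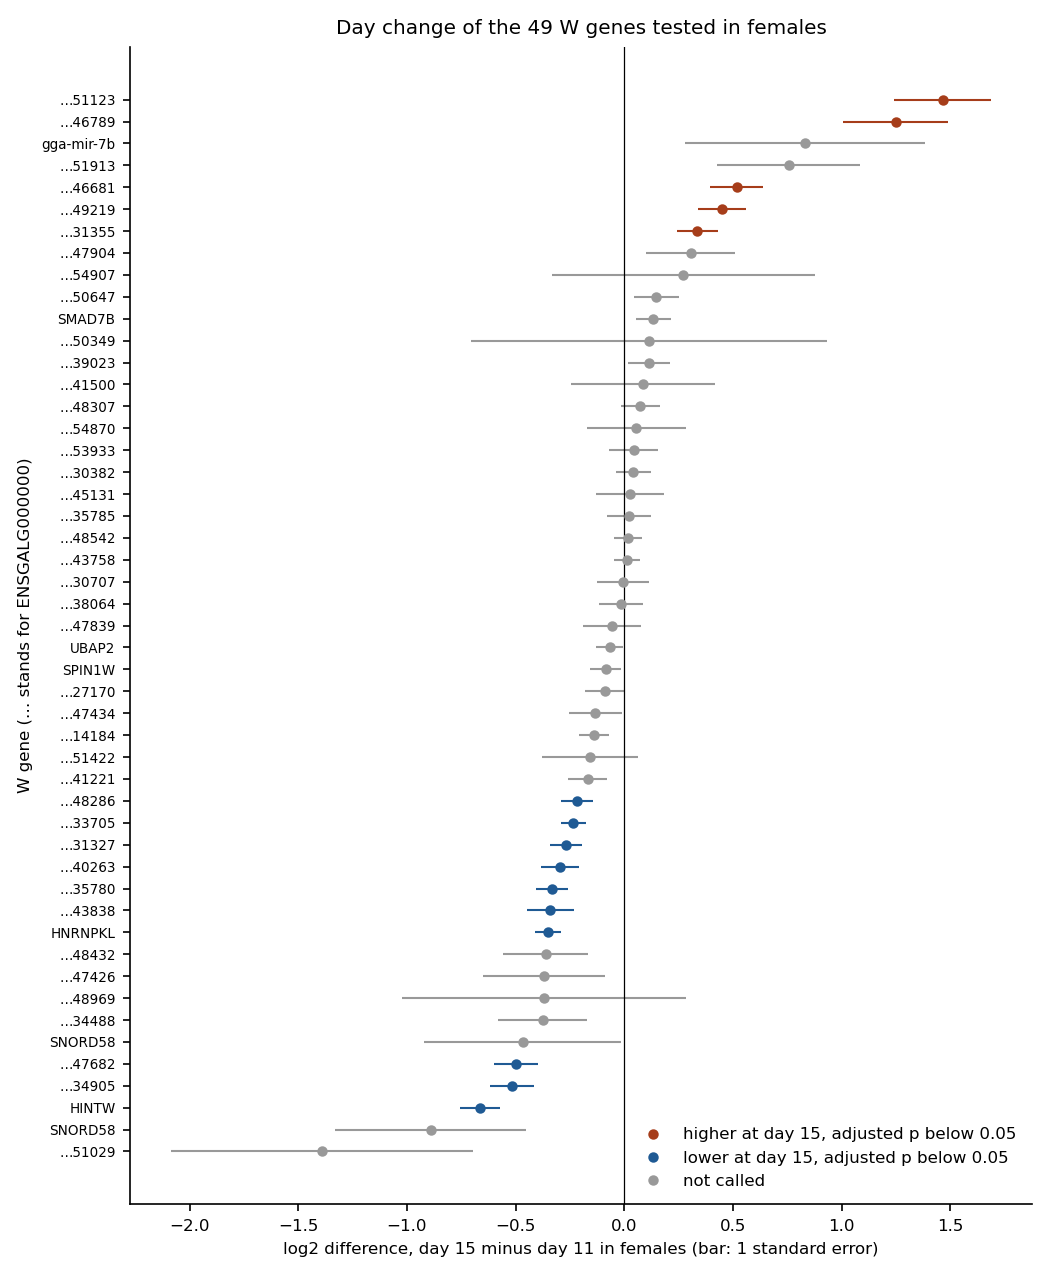
Log2 difference between day 15 and day 11 in females, with 1 standard error, for the 49 W genes tested (10 libraries a day). The 2 largest called changes are rises of 1.46 and 1.25 in ENSGALG00000051123 and ENSGALG00000046789, and HINTW has the largest called fall, of 0.66.

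Few W genes share a name with a Z gene. By name, SPIN1W pairs with SPIN1Z, the 4 SNORD58 genes of the W with 4 of the Z, and the U6 genes with a U6 gene of the Z. A further set of partners was found from gene structure: a W gene was paired with the Z gene that shares its longest run of at least 3 consecutive internal exons of equal length, where no gene elsewhere shared as long a run. This matched 20 W genes, SPIN1W included, with 19 Z genes. Only 23 W genes have the 3 internal exons that the rule needs. The matches to SUB1, SPIN1Z and ENSGALG00000041052 rest on a run of 3, the minimum, where a gene elsewhere shared a run of 2. Sequences were not compared. Small RNA genes lie in corresponding hosts: the 4 SNORD58 copies of the W lie in ENSGALG00000040263 and those of the Z in RPL17, and gga-mir-7b lies in HNRNPKL while gga-mir-7-1 lies in its Z partner ENSGALG00000012591. HINTW and SMAD7B had no Z gene of a matching name. They have 1 and 2 internal exons, so the exon rule could not match them. SMAD7B shared a run of 2 with ENSGALG00000037160 of the Z, and a run of that size with UBE3C elsewhere. Whether HINTW and SMAD7B have a Z counterpart was not tested.

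The Z partners were higher in males, as many Z genes were. At day 11 all 19 passed the test and at day 15 18 did, against 2.56% and 2.61% of all tested genes called higher in males. Of the 676 Z genes tested 372 were higher in males at day 11 and 366 at day 15. The median male to female ratio of the partners was 1.65 at day 11 and 1.56 at day 15, beside 1.42 and 1.38 for all tested Z genes. In 16 partners at day 11 and 17 at day 15 no male library overlapped a female library, whereas 1.29% and 1.27% of all tested genes had every male above every female. SUB1 had the lowest ratios, 1.18 at day 11 (adjusted p = 0.0152) and 1.07 at day 15 (adjusted p = 0.723), and its day 11 call was lost with either range of embryo numbers alone.

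In females the W copies supplied between almost none and about as much as the Z copy. As a share of the summed FPKM of both copies, the W copy of SMAD2Z, a transducer of TGF-beta signals, made up 51.6 ± 1.84% at day 11 and 50.5 ± 3.20% at day 15 (mean ± SD, n = 10). That of CHD1Z made up 50.3 ± 2.95% and 44.3 ± 2.29%, that of VCP 45.5 ± 1.89% and 45.8 ± 3.39%, and that of ATP5A1Z 43.6 ± 1.94% and 43.2 ± 3.54%. HNRNPKL made up 38.03 ± 1.35% and 35.9 ± 2.30% of its pair. Of the 19 pairs 10 had a W share of at least 40% at day 11 and 9 at day 15.

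Other W copies contributed little. SPIN1W made up 17.2 ± 1.45% of its pair at day 11 and 16.3 ± 1.98% at day 15, the W copy of RPL17 11.8 ± 1.06% and 11.2 ± 1.75%, and that of NEDD4L 7.98 ± 0.889% and 8.72 ± 1.16%. ENSGALG00000048633, the W match of ENSGALG00000014724, had a female mean of 0.00126 FPKM beside 10.8 and 12.2 FPKM for the Z gene. Of the 18 pairs with a W share above 1%, 14 had a lower mean share at day 15 than at day 11 and 4 a higher one. These shares depend on the annotated lengths, since the W gene model was 0.292 to 2.05 times as long as the Z model. They and the sums below also depend on how reads that map to both copies were counted, which the sources used here do not state.

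**Figure D4:**
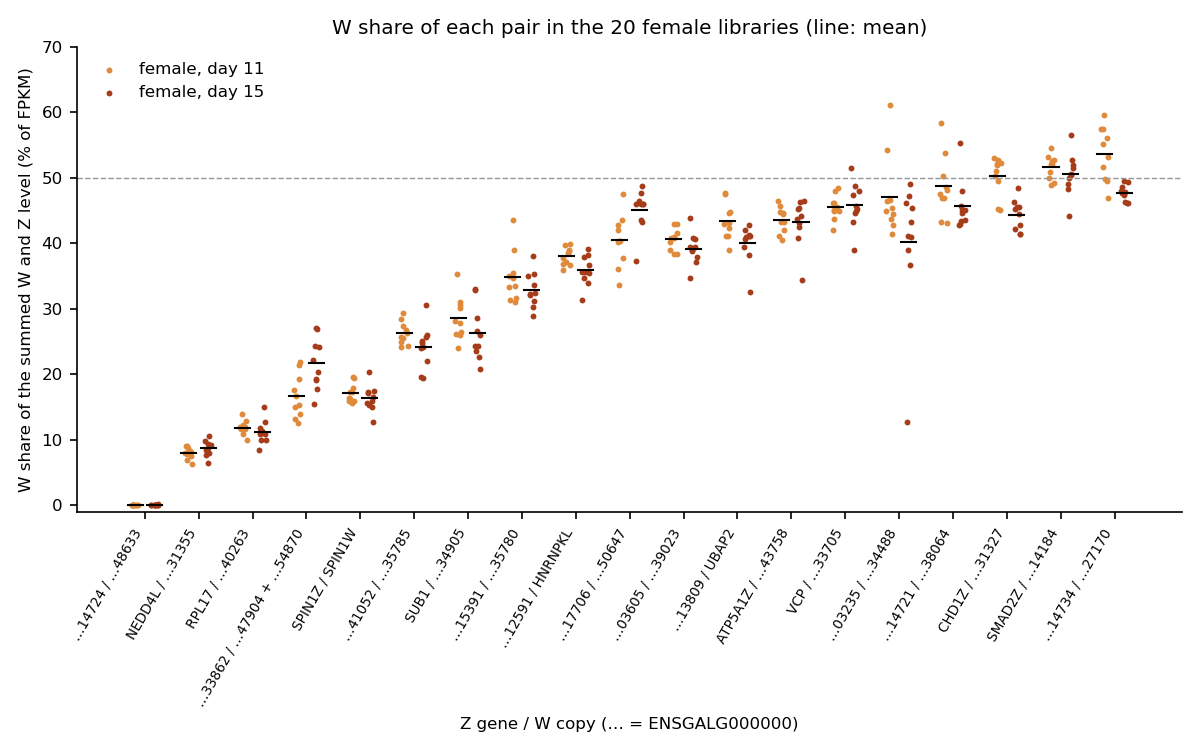
Share of the W copy in the summed W and Z level (percent of FPKM) in each of 20 female libraries, with the mean of each day as a line, for 19 pairs ordered by their day 11 mean. The shares run from near 0 for ENSGALG00000014724 to 53.7% for ENSGALG00000014734 at day 11, and the dashed line marks equal levels.

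Adding the W copy to the Z copy compares what a ZW female and a ZZ male produce from the gene pair. With the copies summed, 7 of 19 pairs were higher in males, 7 were lower and 5 were not called at day 11, against 2.48% and 0.826% of all tested genes called higher and lower. At day 15 the counts were 6, 6 and 7, against 2.51% and 0.776%. The median log2 difference over the 19 pairs moved from 0.72 for the Z gene alone to 0.07 for the sum at day 11, and from 0.64 to -0.06 at day 15. Male libraries held almost no reads on the W copies. Adding a W copy that is read in females therefore lowers the male minus female difference by construction, and more so where its share is large. The direction of this shift is not a test of the pairs.

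ATP5A1Z is a pair near equality. The Z gene ran from 165 to 202 FPKM in day 11 females and from 334 to 377 FPKM in day 11 males, with no overlap. The sum of both copies was 332 ± 18.9 FPKM in females and 349 ± 12.6 in males at day 11, and 333 ± 35.3 and 336 ± 41.7 at day 15. The log2 difference of the sums was 0.07 ± 0.06 at day 11 (limma adjusted p = 0.896) and 0.00 ± 0.06 at day 15 (adjusted p = 0.996). The HNRNPKL pair gave sums of 176 ± 11.9 FPKM in females and 172 ± 7.56 in males at day 11, with a log2 difference of -0.04 ± 0.04 (adjusted p = 0.898). With reads summed in place of FPKM, which gives more weight to the longer gene model, this pair was lower in males (log2 -0.27, adjusted p = 1.04e-05 at day 11).

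SPIN1 is a pair that stayed apart. SPIN1Z ran from 61.3 to 80.7 FPKM in day 11 females and from 116 to 144 FPKM in day 11 males. With SPIN1W added, females had 87.4 ± 5.89 FPKM and males 133 ± 7.57, a log2 difference of 0.59 ± 0.04 at day 11, and of 0.56 ± 0.04 at day 15 (adjusted p of 2.68e-15 and 2.16e-14). With reads summed in place of FPKM the differences were 0.36 and 0.33 on the log2 scale, still called, since the SPIN1W model is 2.05 times as long as that of SPIN1Z. The sums of RPL17 (log2 0.54 ± 0.09 at day 11 and 0.64 ± 0.09 at day 15) and NEDD4L (0.45 ± 0.06 and 0.43 ± 0.06) also remained higher in males.

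In other pairs the sum was higher in females. For SMAD2Z it was 32.0 ± 3.55 FPKM in females and 27.4 ± 1.38 in males at day 11 (log2 -0.23 ± 0.05, adjusted p = 0.00118), and the log2 difference at day 15 was -0.31 ± 0.05. For CHD1Z the log2 differences were -0.31 ± 0.05 and -0.24 ± 0.05, and for VCP -0.15 ± 0.04 (adjusted p = 0.0461) and -0.27 ± 0.04. For SUB1 they were -0.25 ± 0.06 and -0.34 ± 0.06. The largest female excess at day 11 was in the ENSGALG00000003235 pair (-0.41 ± 0.09, limma adjusted p = 0.0017). Its day 11 call was lost with embryos 22 to 48 alone (0.0659). At day 15 this pair was not called (-0.28 ± 0.09, adjusted p = 0.0948). It was called there without female embryo 83 (-0.31, 0.0409) and with embryo number as a covariate (-0.28, 0.00761). With reads summed in place of FPKM, the pairs lower in males numbered 4 at day 11 and 3 at day 15. VCP lost its call at day 11, CHD1Z at day 15, and SUB1, ENSGALG00000014721 and ENSGALG00000014734, the pair with the highest W share at day 11, at both days. The HNRNPKL pair gained a call. The ENSGALG00000015391 pair, called higher in males at day 11 on FPKM (log2 0.27 ± 0.06), was not called on reads (log2 0.0026, limma adjusted p = 0.999). The ENSGALG00000017706 pair, called at neither day on FPKM, was called higher in males at both days on reads (log2 0.63 and 0.45). The day 11 embryos numbered 2 to 20 are 9 embryos, 4 of them female. With these alone, SMAD2Z (adjusted p = 0.227), CHD1Z (0.0937), VCP (0.399) and SUB1 (0.0841) all lost their day 11 call, as did RPL17 (0.0545). The pairs of ENSGALG00000014721 (0.41) and ENSGALG00000015391 (0.203) lost theirs too. In that subset 2 pairs were called lower in males. The log2 differences kept their sign: -0.20 ± 0.08 for SMAD2Z, -0.25 ± 0.08 for CHD1Z and -0.11 ± 0.05 for VCP. They were -0.28 ± 0.09 for SUB1 and 0.40 ± 0.11 for RPL17. VCP at day 11 also missed the threshold without the filter on low values (adjusted p = 0.0525) and without trend and robust moderation (0.0529). At day 15 the call of ENSGALG00000033862, higher in males, had a limma adjusted p of 0.0493, and that of ENSGALG00000014721, lower in males, 0.049. Each was lost under several alternatives, such as a pseudocount of 1 for the former (0.0512) and FPKM as deposited for the latter (0.102).

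**Figure D5:**
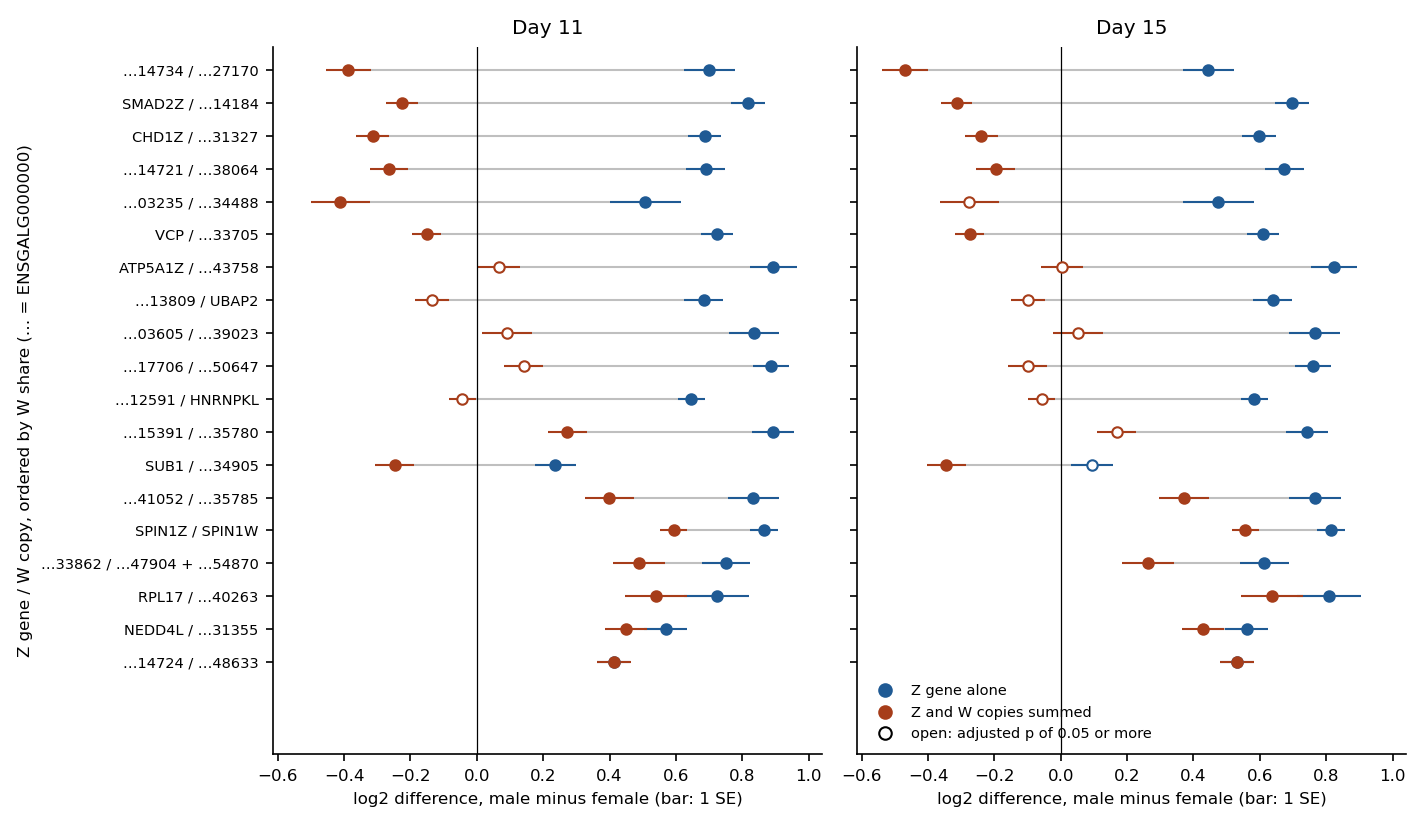
Log2 difference between males and females, with 1 standard error, for 19 Z genes alone and for the sum of Z and W copies at day 11 and day 15 (10 libraries a group), with open symbols where the adjusted p is 0.05 or more. Adding the W copy brings the pairs with a large W share near or below 0, while SPIN1Z stays at 0.59 and 0.56. The direction of this shift is fixed by the near absence of W reads in males.

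Of the 7 paired W genes called with day in females, 5 had a Z partner called in the same direction, beside 22.3% of all tested genes called higher and 21.9% called lower. The W copy of SUB1 changed by -0.52 and SUB1 by -0.35 on the log2 scale, the W copy of VCP by -0.24 and VCP by -0.25, and HNRNPKL by -0.35 and its partner by -0.22. The W copy of NEDD4L changed by 0.34 and NEDD4L by 0.21. RPL17 (-0.20, adjusted p = 0.145) and CHD1Z (0.07, adjusted p = 0.345) were not called while their W copies fell. Among pairs whose W copy was not called, ENSGALG00000033862 fell by 0.32 while its W copies stood at 0.31 and 0.06, and ENSGALG00000014734 rose by 0.25 while its W copy stood at -0.09 (all log2). Differences between the copies of a pair were not tested.

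In males, which have the Z copies alone, 3 of the 19 partners rose and 7 fell with day, against 24% and 23.6% of all tested genes. In females 4 rose and 5 fell. The sex by day interaction passed the test in 0 of the 19 partners by limma and in 0 by limma on recovered reads, with 1 at an unadjusted p below 0.05. Of all tested genes 0.0252% passed it. The interaction was negative, that is a lower day change in males, in 17 of the 19 partners (median log2 -0.07). Among all 15880 tested genes it was negative in 7831 (median log2 0.002). The median male minus female log2 difference also went down in the 676 tested Z genes, from 0.50 at day 11 to 0.46 at day 15. In the partners it went from 0.72 to 0.64. Whether the partners lean to 1 side as a set was not tested.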

How the data were processed

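Values are the authors' deposited FPKM, in a table named for raw counts. Per the submitters' processing notes HISAT2, HTSeq and GRCg6a were used; neither versions nor the handling of multiply mapped reads were stated there. Multiplied by mean transcript length and depth, 100% of values below 200 reads were whole within 0.01, which gave depth and reads. Because the values are FPKM, no count model is the main test.

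FPKM were scaled by a trimmed mean of log ratios (30% and 5% trims) and tested as log2(scaled FPKM + 0.1) with limma 3.58.1 (R 4.3.3, statmod 1.5.0; trend, robust), on genes of at least 0.5 FPKM in at least 10 libraries. Fold changes on this scale understate changes of low genes. The day test used 20 female libraries; sex tests used 40 with 4 group means. P-values were adjusted by Benjamini-Hochberg over all tested genes. Replicates are different embryos. The procedure was tested on simulated data.

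The W genes and gene lists were chosen with earlier results of these data known. Named genes are W genes with a symbol and Z partner, the 8 highest in females, up to 8 largest called rises and falls and up to 8 with the highest male to female ratio; exon-matched pairs, UBAP2, SMAD7B and others were added later. The exon rule and limma on recovered reads were chosen after the files were seen. Alternatives covered pseudocount, filter, scaling, moderation, embryo number and libraries.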

Additional observations from a re-analysis of the deposited data

Results flagged for a closer look

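Some single libraries stood apart from the other 9 of their group by the gap to the nearest value. Of 124 groups of values examined 7 held such a library, and chance gives about 1 in 20, so the number is near that of chance. Among day 11 females, embryo 22 had 6.85 FPKM of ENSGALG00000049219 (next highest 4.95) and 5.41 FPKM of ENSGALG00000047904 (next 3.37), and embryo 20 had 24.01 FPKM of ENSGALG00000034905 (next 17.3). Among day 15 females, embryo 70 had 13.5 FPKM of ENSGALG00000048307 (next lowest 17.6), and embryo 83 had 77.2 FPKM of ENSGALG00000012591, the Z partner of HNRNPKL (next lowest 89.5). Among day 15 males, embryo 81 had 1417 FPKM of RPL17 (next highest 1205) and 15.0 FPKM of ENSGALG00000017706 (next lowest 17.2).

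Outside the W genes of the annotation, 14 gene models of the table that have no position (XLOC identifiers) were read in females and near 0 in males: female means of 1.10 to 13.6 FPKM, male means of at most 0.54% of them, and no overlap between the sexes. By the same rule 37 annotated W genes qualified.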

How the results depend on the processing

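No paired analysis was possible because the replicate numbers are embryo numbers that no groups share. Of 122 recomputed counts and summed SPIN1 differences, 118 stayed within 1.5 times the reported count or on the same side of the threshold. W genes higher at day 15 numbered 5 to 7, and those lower 6 to 12; the lowest, 6 genes, came from the fit on all 40 libraries, in which the spread of males near 0 enters, and 9 of the 15 called genes were shared with the female fit. With limma on recovered reads all 15 were shared. Pairs with a summed level lower in males fell to 2 at day 11 with embryos 2 to 20 alone (the cause was not tested beyond fewer samples), and to 4 at day 11 and 3 at day 15 on recovered reads. On recovered reads (limma) the summed log2 difference reversed for SUB1 at day 11 (0.0609, adjusted p = 0.923) and ENSGALG00000014721 at days 11 (0.1265, 0.436) and 15 (0.169, 0.0961). It also reversed for ENSGALG00000017706 at day 15 (0.4546, adjusted p = 2.99e-08). That pair was called higher in males at day 11 too (0.6288, adjusted p = 3.24e-12), against 0.14 and -0.10 on FPKM, not called. In these 3 pairs the W model is 0.327, 0.505 and 0.292 times as long as the Z model, so a sum of reads gives it less weight. Of 1417 values of single genes under alternatives, 1349 stayed on the same side of the threshold, 45 lost a call and 19 gained one. The other 4 reversed direction with a call in at least 1 of the fits compared. Changes of sign where neither fit made a call were counted among the 1349. The filter on low values left out the low genes: 75 of the 124 had a female mean under 0.5 FPKM and were not tested for day, and 12 had no read in any female. Without that filter 112 W genes were tested and 18 called, the 15 of the main fit among them. The calls gained were ENSGALG00000049069 (female means of 0.291 FPKM at day 11 and 0.133 at day 15), ENSGALG00000052752 and ENSGALG00000053504.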

Other observations

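A pair of neighbouring long noncoding RNA genes on chromosome Z were read in females and near 0 in males, as W genes were. ENSGALG00000051419 (chromosome Z, 27317307 to 27383989, GRCg6a) ran from 33.0 to 45.9 FPKM in day 11 females and from 32.8 to 52.3 FPKM in day 15 females, and its highest male value was 0.459 FPKM. Its male mean was 0.258% of the female mean, within the 0.0888 to 0.267% of the abundant W genes. ENSGALG00000050012 (27177112 to 27307449) had a female mean of 3.80 FPKM and a male mean of 0.526% of it. They were the only genes on a chromosome other than W that met the rule of a female mean of at least 1 FPKM, a male mean under 1% of it and no overlap.

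ENSGALG00000034488, the W match of ENSGALG00000003235, stood at 1.45 FPKM in day 15 female embryo 83, whereas the next lowest day 15 female had 4.49 FPKM and the lowest day 11 female 6.24 FPKM.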
